A study of Mus musculus with 6 samples.

Results

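The aminoacyl-tRNA synthetases, the enzymes that load each transfer RNA with its amino acid, were followed in transferred BDC2.5 T cells taken from the spleens of NOD mice. The list held 36 genes, 20 cytosolic and 16 mitochondrial, the mitochondrial ones with names ending in 2. Of these 36 genes, 34 were measured, 18 cytosolic and 16 mitochondrial, among 19938 genes in all. Each gene was read from the probe set that named only its symbol, and for the 1 member with several such probe sets, from the one with the highest mean over the 6 arrays. Dars was not analysed here, and Aars was read only on a probe set that also names Exosc6, so it stayed outside the counts. BDC2.5 T cells carry a receptor for an antigen of pancreatic islet beta cells, and NOD mice develop autoimmune diabetes.

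Each mouse had received BDC2.5 T cells and then 100 ng of anti-DCIR2-BDC, 100 ng of anti-DEC205-BDC, or PBS as the control. DCIR2 and DEC205 are receptors of different dendritic cells of the spleen, and the antibodies carry the BDC antigen to the cells that bear them. The Thy1.1+CD4+ cells were sorted 14 h after the injection from female mice aged 7 weeks. Every group had 2 arrays, named biological duplicates in the labels. The number of animals behind an array is not stated, and p-values measure only the spread between these samples. Both antibodies came with the antigen in every treated group, and what the antibody alone does cannot be told apart from the antigen. All values are log2 expression after RMA, the authors' background correction, normalization and summary of probes, and a log2 change of 1 is a doubling.

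Aminoacyl-tRNA synthetases use ATP to activate an amino acid and pass it to the matching transfer RNA, which then brings it to the ribosome. Most amino acids have a cytosolic enzyme and a separate mitochondrial enzyme, both encoded in the nucleus. Several of the cytosolic enzymes sit together in the multisynthetase complex, held by scaffold proteins without synthetase activity. T cells that meet their antigen grow and raise their protein synthesis before they divide.

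The sorted cells carried the markers of CD4 T cells. Over the 6 arrays Cd3e lay between the 99.6th and 99.8th percentile of all genes and Cd4 between the 98.4th and 99.4th, whereas of the CD8 genes Cd8a lay between the 28.5th and 43.3rd and Cd8b1 between the 55.9th and 74.0th. Of the 10 listed T cell identity genes 9 were measured, and their mean level was 9.58 and 9.64 on the anti-DCIR2-BDC arrays, 10.08 and 10.003 on the anti-DEC205-BDC arrays, and 10.39 and 10.46 on the PBS arrays. Of these 9, 6 fell after anti-DCIR2-BDC (Trat1, Cd3g, Cd3d, Cd28, Cd3e and Cd4) and 1 after anti-DEC205-BDC (Trat1). Over all genes 7.82% fell after anti-DCIR2-BDC and 3.53% after anti-DEC205-BDC, shares that also stand beside the natural killer counts below. The Cd4 call was lost without the first anti-DCIR2-BDC array or the second PBS array, and that of Trat1 after anti-DEC205-BDC without the second anti-DEC205-BDC array or the first PBS array, and both with all probe sets tested. The anti-DEC205-BDC count was 3 with a second quantile normalization or without the dimmest 50% of genes. The lists for CD8 T cells, B cells, plasma cells, dendritic cells, macrophages, neutrophils and erythroid cells had 0 passing members in limma in either comparison with PBS, with mean levels from 4.69 to 6.03. After anti-DCIR2-BDC 1 B cell gene passed without the second PBS array and 1 macrophage gene without the first anti-DCIR2-BDC array. At an unadjusted p of 0.05 these lists had 5 members different after anti-DCIR2-BDC and 3 after anti-DEC205-BDC. No share of all genes at this level is given here, so whether these counts exceed it cannot be told. The natural killer list had 2 of 5 members lower after both antibodies, Klrd1 with log2 changes of -2.62 and -1.54 and Prf1 with -0.95 and -0.97, given for anti-DCIR2-BDC first. Without the first anti-DCIR2-BDC array 1 natural killer gene passed after anti-DCIR2-BDC, and after anti-DEC205-BDC 1 passed without the first anti-DEC205-BDC array or the second PBS array, and 0 with all probe sets tested. The part of these shifts in the results was not tested. In sorted bulk samples, fewer cells of a state and less RNA per cell cannot be told apart. Arrays of a group correlated over all genes at 0.982 for anti-DCIR2-BDC, 0.974 for anti-DEC205-BDC and 0.974 for PBS. The second anti-DEC205-BDC array lay nearer the anti-DCIR2-BDC arrays (0.979 and 0.980) than the first anti-DEC205-BDC array (0.974), and results that change without it are given below.

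Promoter sequence is shown first, as a description, and a link between a motif and the changes was not tested. RefSeq (GRCm38.p6) windows of 250 bases before to 50 bases after the start were at hand for 25 of the 34 measured genes, 11 cytosolic and 14 mitochondrial. Cars, Hars, Lars, Nars, Rars, Vars, Wars, Hars2 and Pars2 were not matched. The motifs searched, chosen after the values were known, were TGATGNAA, the C/EBP-ATF response element through which ATF4 acts on amino acid genes, and CACGTG, the E-box that MYC and other factors bind. Both strands were searched, and the sites of the motifs do not overlap in the windows that hold both. Counted by gene, with every window of a gene searched, TGATGNAA was found for 4 of 11 cytosolic genes (Gars, Iars, Tars and Yars) and 0 of 14 mitochondrial genes, and for 4.51% of all 27025 genes with a window. CACGTG was found for 3 of 11 cytosolic genes (Farsb, Iars and Tars) and 1 of 14 mitochondrial genes (Ears2), and for 8.09% of all genes with a window. A match is a description of these letters and not evidence of binding.

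The 4 windows with a TGATGNAA match follow as 30 bases each, 5′ to 3′ on the gene's strand, with the match in capitals. In Gars, Iars and Tars it reads in the reverse orientation. They lie at chr6:55037960-55037989 on the + strand, chr13:49682126-49682155 on the + strand, chr15:11399655-11399684 on the − strand and chr4:129189895-129189924 on the + strand.
Gars: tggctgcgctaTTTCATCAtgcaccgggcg
Iars: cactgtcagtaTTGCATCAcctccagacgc
Tars: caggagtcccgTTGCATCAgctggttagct
Yars: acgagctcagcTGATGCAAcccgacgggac

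The E-box is shown for Farsb and Iars in 120 bases before the start, at chr1:78488898-78489017 on the − strand and chr13:49682001-49682120 on the + strand, again in capitals. In Tars the E-box lies after the start and is not printed.
Farsb: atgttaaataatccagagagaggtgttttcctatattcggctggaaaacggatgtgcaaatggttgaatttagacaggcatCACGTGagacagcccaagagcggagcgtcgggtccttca
Iars: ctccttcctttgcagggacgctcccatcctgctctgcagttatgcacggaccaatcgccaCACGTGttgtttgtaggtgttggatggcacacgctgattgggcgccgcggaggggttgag
Iars, like Tars, has both motifs in its window, and Farsb has the E-box alone.

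The cytosolic synthetases were higher after both antibodies than after PBS. After anti-DCIR2-BDC, 17 of 18 cytosolic genes rose, among them Iars, the isoleucine enzyme, by 4.31-fold, and after anti-DEC205-BDC 12 of 18 rose. The mitochondrial enzymes mostly did not pass: 2 of 16 rose after anti-DCIR2-BDC (Yars2 and Sars2) and 2 of 16 after anti-DEC205-BDC (Yars2 and Nars2). Counts rest on an adjusted p under 0.05 in limma, fitted over all 19938 genes. In that fit 17.9% of all genes passed for anti-DCIR2-BDC against PBS, 10.1% upwards, and 8.84% for anti-DEC205-BDC against PBS, 5.32% upwards. Over all 34 members 19 rose after anti-DCIR2-BDC and 14 after anti-DEC205-BDC, and 0 fell in either, where 7.82% and 3.53% of all genes fell. Both comparisons share the PBS arrays, so they are not independent of each other.

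The median log2 change of the 18 cytosolic genes was 1.58 after anti-DCIR2-BDC and 1.09 after anti-DEC205-BDC, beside -0.05 and -0.03 over all genes. For the 16 mitochondrial genes it was 0.31 and 0.11. Array by array, the median cytosolic gene stood 1.52 and 1.58 above its PBS mean on the anti-DCIR2-BDC arrays and 1.04 and 1.11 above it on the anti-DEC205-BDC arrays, with the PBS arrays at -0.04 and 0.04. The median mitochondrial gene stood at 0.33 and 0.24 on the anti-DCIR2-BDC arrays, -0.01 and 0.29 on the anti-DEC205-BDC arrays, and -0.11 and 0.11 on the PBS arrays. The mitochondrial median after anti-DEC205-BDC thus rested on single arrays, and it ran from -0.01 without the second anti-DEC205-BDC array to 0.30 without the second PBS array. Every one of the 18 cytosolic genes was higher on both arrays of each antibody group than on both PBS arrays, where 23.4% of all genes lay so after anti-DCIR2-BDC and 22.2% after anti-DEC205-BDC. Of the mitochondrial genes 10 of 16 lay so after anti-DCIR2-BDC and 5 of 16 after anti-DEC205-BDC.

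**Figure D1:**
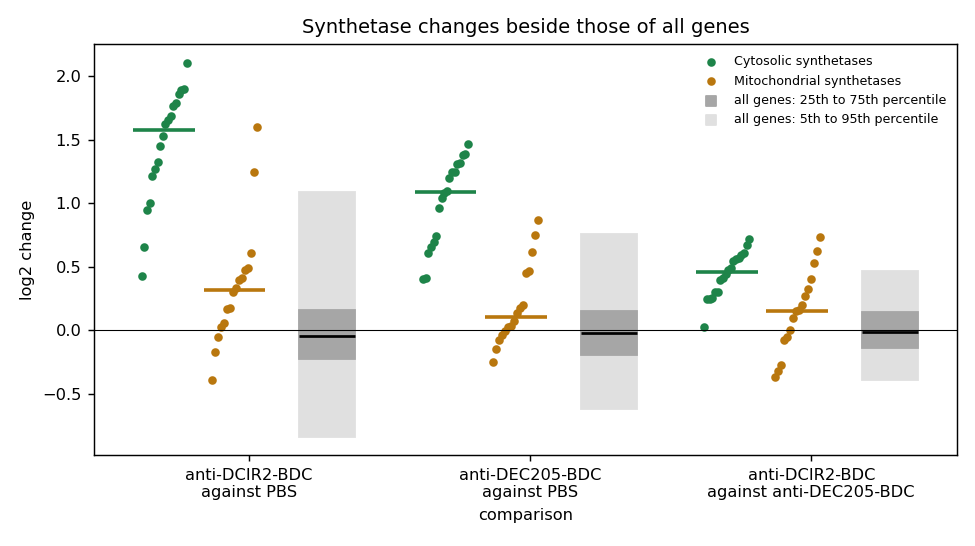
Log2 change of each cytosolic and mitochondrial synthetase (points, with a line at the median) beside all 19938 genes (grey boxes from the 5th to the 95th and the 25th to the 75th percentile), in the 3 comparisons along the x axis. Against PBS the cytosolic genes have medians of 1.58 and 1.09, and 90% of all genes lie between -0.84 and 1.09 after anti-DCIR2-BDC and between -0.62 and 0.76 after anti-DEC205-BDC.

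The enzymes of the multisynthetase complex are taken first. Of the 7 measured, 6 rose after each antibody, with Qars as the exception. Iars measured 10.27 and 10.19 on the anti-DCIR2-BDC arrays, 9.47 and 9.55 on the anti-DEC205-BDC arrays and 8.10 and 8.15 on the PBS arrays. Its 3 groups did not overlap, and it rose after anti-DCIR2-BDC by 2.11 ± 0.16 (SE; adjusted p = 3.93e-05) and after anti-DEC205-BDC by 1.39 ± 0.16 (SE; adjusted p = 0.000883). A second Iars probe set gave 9.82 and 9.91 on the anti-DCIR2-BDC arrays, 9.02 and 9.26 on the anti-DEC205-BDC arrays and 7.74 and 7.88 on the PBS arrays. Its log2 changes of 2.05 and 1.32 were close to those of the first, so the probe sets of this gene did not disagree.

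Mars, the methionine enzyme, measured 8.67 and 8.88 on the anti-DCIR2-BDC arrays, 8.09 and 8.32 on the anti-DEC205-BDC arrays and 6.86 and 6.91 on the PBS arrays. It rose by 1.89 ± 0.19 (SE; adjusted p = 0.000128) after anti-DCIR2-BDC and by 1.32 ± 0.19 (SE; adjusted p = 0.00273) after anti-DEC205-BDC. Rars, the arginine enzyme, measured 9.99 and 9.87 after anti-DCIR2-BDC, 9.50 and 9.77 after anti-DEC205-BDC and 8.12 and 8.21 after PBS. The Rars rises were 1.77 ± 0.17 (SE; adjusted p = 9.75e-05) and 1.47 ± 0.17 (SE; adjusted p = 0.000939) for anti-DCIR2-BDC and anti-DEC205-BDC. In both genes the 3 groups were separate, in the order anti-DCIR2-BDC, anti-DEC205-BDC, PBS.

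Kars, the lysine enzyme, is encoded by 1 gene for cytosol and mitochondria. It measured 9.14 and 9.22 on the anti-DCIR2-BDC arrays, 8.56 and 8.81 on the anti-DEC205-BDC arrays and 7.43 and 7.55 on the PBS arrays, with rises of 1.69 ± 0.18 (SE; adjusted p = 0.000175) after anti-DCIR2-BDC and 1.20 ± 0.18 (SE; adjusted p = 0.00343) after anti-DEC205-BDC. Eprs joins the glutamate and proline enzymes in 1 protein. Its levels were 9.56 and 9.73 after anti-DCIR2-BDC, 9.07 and 9.10 after anti-DEC205-BDC and 7.84 and 8.13 after PBS, and it rose by 1.66 ± 0.18 (SE; adjusted p = 0.000172) and 1.10 ± 0.18 (SE; adjusted p = 0.00467) after anti-DCIR2-BDC and anti-DEC205-BDC. As with Iars, no array of one group reached into another.

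Lars, the leucine enzyme, has also been described in human cells as a leucine sensor for mTORC1. Its levels were 8.83 and 9.16 after anti-DCIR2-BDC, 8.61 and 8.77 after anti-DEC205-BDC and 7.64 and 7.82 after PBS. It rose by 1.27 ± 0.19 (SE; adjusted p = 0.00118) after anti-DCIR2-BDC and by 0.96 ± 0.19 (SE; adjusted p = 0.0125) after anti-DEC205-BDC, and the second call was lost without the second anti-DEC205-BDC array, without the first PBS array, and with all probe sets tested (adjusted p up to 0.0773). Qars, the glutamine enzyme, measured 7.34 and 7.30 on the anti-DCIR2-BDC arrays, 7.13 and 7.46 on the anti-DEC205-BDC arrays and 6.89 and 6.88 on the PBS arrays. Every antibody array lay above both PBS arrays, but the log2 changes were 0.43 ± 0.19 (SE; adjusted p = 0.176) and 0.40 ± 0.19 (SE; adjusted p = 0.273), and neither passed in limma.

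The scaffold proteins moved with these enzymes: Eef1e1, Aimp2 and Aimp1 all rose after both antibodies (3 of 3). Eef1e1 measured 9.48 and 9.69 on the anti-DCIR2-BDC arrays, 9.11 and 9.22 on the anti-DEC205-BDC arrays and 6.70 and 7.01 on the PBS arrays, a rise of 2.73 ± 0.19 (SE; adjusted p = 3.93e-05) after anti-DCIR2-BDC and 2.31 ± 0.19 (SE; adjusted p = 0.000306) after anti-DEC205-BDC. Aimp2 rose by 1.95 (adjusted p = 7.92e-05) and 1.63 (adjusted p = 0.000781), and Aimp1, whose protein can also be released as a cytokine-like factor, by 1.91 (adjusted p = 0.000157) and 1.42 (adjusted p = 0.00256), for anti-DCIR2-BDC and anti-DEC205-BDC.

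**Figure D2:**
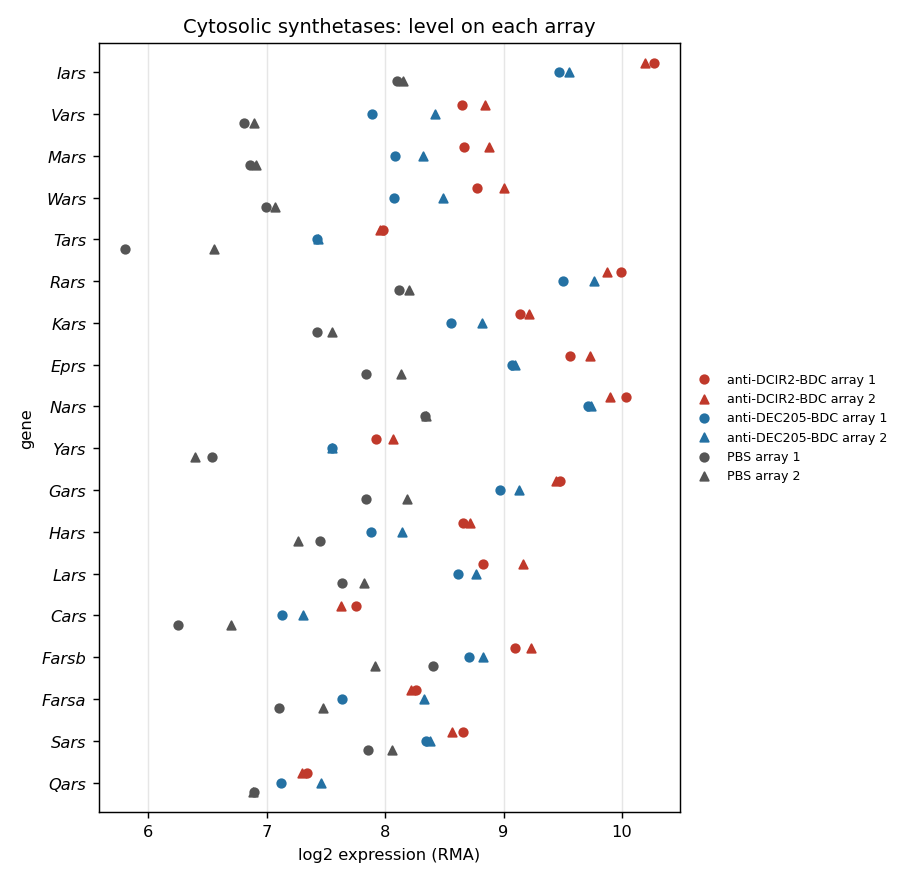
Log2 expression of the 18 measured cytosolic synthetases on each of the 6 arrays, 1 row per gene and 1 point per array. For every gene the 4 antibody arrays lie to the right of both PBS arrays, and for 16 genes the anti-DCIR2-BDC arrays also lie to the right of the anti-DEC205-BDC arrays.

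Of the 11 measured cytosolic genes outside the complex 11 rose after anti-DCIR2-BDC and 6 after anti-DEC205-BDC. Vars, the valine enzyme, binds the elongation factor that takes over the charged transfer RNA. It measured 8.65 and 8.85 on the anti-DCIR2-BDC arrays, 7.89 and 8.43 on the anti-DEC205-BDC arrays and 6.81 and 6.89 on the PBS arrays, with rises of 1.90 ± 0.22 (SE; adjusted p = 0.000238) and 1.31 ± 0.22 (SE; adjusted p = 0.00515) for anti-DCIR2-BDC and anti-DEC205-BDC. Wars, the tryptophan enzyme, is known as a gene that interferon-gamma raises. Its levels were 8.78 and 9.0003 after anti-DCIR2-BDC, 8.07 and 8.49 after anti-DEC205-BDC and 6.995 and 7.07 after PBS, with rises of 1.86 ± 0.21 (SE; adjusted p = 0.000193) and 1.25 ± 0.21 (SE; adjusted p = 0.00482) in the same order of comparisons.

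Tars, the threonine enzyme, whose window holds both motifs, measured 7.99 and 7.96 on the anti-DCIR2-BDC arrays, 7.43 and 7.43 on the anti-DEC205-BDC arrays and 5.81 and 6.56 on the PBS arrays. Its PBS arrays lay further apart than those of Iars, but all antibody arrays lay above them, and the rises were 1.79 ± 0.24 (SE; adjusted p = 0.000579) after anti-DCIR2-BDC and 1.25 ± 0.24 (SE; adjusted p = 0.0107) after anti-DEC205-BDC. The second was lost without the first PBS array and with all probe sets (adjusted p up to 0.0838). Nars, the asparagine enzyme, measured 10.03 and 9.90 after anti-DCIR2-BDC, 9.71 and 9.74 after anti-DEC205-BDC and 8.34 and 8.35 after PBS. It rose by 1.62 ± 0.16 (SE; adjusted p = 9.77e-05) and 1.38 ± 0.16 (SE; adjusted p = 0.000873), and its anti-DEC205-BDC change was nearest to its anti-DCIR2-BDC change among the genes that rose after both, with Rars next in line.

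Yars, the tyrosine enzyme, measured 7.92 and 8.07 on the anti-DCIR2-BDC arrays, 7.55 and 7.55 on the anti-DEC205-BDC arrays and 6.54 and 6.39 on the PBS arrays. It rose by 1.53 ± 0.18 (SE; adjusted p = 0.000303) after anti-DCIR2-BDC and by 1.08 ± 0.18 (SE; adjusted p = 0.00580) after anti-DEC205-BDC. Gars, the glycine enzyme, which like Kars serves cytosol and mitochondria from 1 gene, measured 9.48 and 9.44 after anti-DCIR2-BDC, 8.97 and 9.13 after anti-DEC205-BDC and 7.84 and 8.18 after PBS. Its rises were 1.45 ± 0.18 (SE; adjusted p = 0.000398) and 1.04 ± 0.18 (SE; adjusted p = 0.00686). With all probe sets tested, the anti-DEC205-BDC calls of Gars and Vars were lost (adjusted p = 0.0514 and 0.0535 in limma).

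Hars, Cars, Farsb, Farsa and Sars passed after anti-DCIR2-BDC and not after anti-DEC205-BDC. The difference between the antibodies did not pass for any of them (adjusted p from 0.279 to 0.806 in limma). Hars, the histidine enzyme, measured 8.66 and 8.72 on the anti-DCIR2-BDC arrays, 7.88 and 8.15 on the anti-DEC205-BDC arrays and 7.45 and 7.26 on the PBS arrays. It rose by 1.33 ± 0.19 (SE; adjusted p = 0.000822) after anti-DCIR2-BDC, and the anti-DEC205-BDC change was 0.66 ± 0.19 (SE; adjusted p = 0.0627). Hars passed after anti-DEC205-BDC under 3 of 17 alternatives (lowest adjusted p 0.0286 in limma). In RefSeq it is the next gene to Hars2, the mitochondrial histidine enzyme, whose log2 changes were 0.33 (adjusted p = 0.346) and 0.18 (adjusted p = 0.711). Of these neighbours the cytosolic one passed after anti-DCIR2-BDC and the mitochondrial one did not, and the difference between them was not tested.

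Cars, the cysteine enzyme, measured 7.76 and 7.63 on the anti-DCIR2-BDC arrays, 7.13 and 7.31 on the anti-DEC205-BDC arrays and 6.26 and 6.70 on the PBS arrays, with changes of 1.21 ± 0.21 (SE; adjusted p = 0.00229) and 0.74 ± 0.21 (SE; adjusted p = 0.0544). It passed after anti-DEC205-BDC under 7 of 17 alternatives (lowest adjusted p 0.0309). Farsa and Farsb encode the α and β subunits of the phenylalanine enzyme. Farsb measured 9.09 and 9.23 after anti-DCIR2-BDC, 8.71 and 8.83 after anti-DEC205-BDC and 8.40 and 7.92 after PBS, with changes of 0.9997 ± 0.20 (SE; adjusted p = 0.00587) and 0.61 ± 0.20 (SE; adjusted p = 0.102). Farsa measured 8.26 and 8.22 after anti-DCIR2-BDC, 7.64 and 8.32 after anti-DEC205-BDC and 7.11 and 7.48 after PBS, with changes of 0.95 ± 0.25 (SE; adjusted p = 0.0225) and 0.69 ± 0.25 (SE; adjusted p = 0.130). The Farsa call after anti-DCIR2-BDC was lost with all probe sets tested, and its anti-DEC205-BDC change was 1.03 without the first anti-DEC205-BDC array. Farsb passed after anti-DEC205-BDC without the dimmest 50% of genes (adjusted p = 0.0474 in limma). The subunits thus had like changes, and the calls of both after anti-DCIR2-BDC rested on single arrays: that of Farsb was lost without the second anti-DCIR2-BDC array (adjusted p = 0.0622), and that of Farsa without either anti-DCIR2-BDC array or the first PBS array (up to 0.135).

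Sars, the serine enzyme, also charges the transfer RNA of selenocysteine. It measured 8.66 and 8.56 on the anti-DCIR2-BDC arrays, 8.35 and 8.38 on the anti-DEC205-BDC arrays and 7.86 and 8.06 on the PBS arrays. The rise after anti-DCIR2-BDC was the smallest among passing members, 0.65 ± 0.18 (SE; adjusted p = 0.0295), and the value after anti-DEC205-BDC was 0.41 ± 0.18 (SE; adjusted p = 0.231). Without either anti-DCIR2-BDC array, without the first PBS array, with all probe sets or with a second quantile normalization the Sars call was lost (adjusted p up to 0.155). The probe set shared by Aars, the alanine enzyme, and Exosc6 measured 8.27 and 8.09 on the anti-DCIR2-BDC arrays, 7.40 and 7.70 on the anti-DEC205-BDC arrays and 6.70 and 6.80 on the PBS arrays. Its changes in the fit over all probe sets were 1.43 (adjusted p = 0.0107) and 0.80 (adjusted p = 0.0975) for anti-DCIR2-BDC and anti-DEC205-BDC, and they cannot be assigned to either gene.

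Synthetases fall into 2 structural classes with unrelated folds. Leaving Eprs aside, which holds an enzyme of each class, 8 of 9 cytosolic class I genes and 8 of 8 class II genes rose after anti-DCIR2-BDC. After anti-DEC205-BDC the counts were 7 of 9 and 4 of 8. The median changes were 1.77 for class I and 1.39 for class II after anti-DCIR2-BDC, and 1.25 and 0.87 after anti-DEC205-BDC. A difference between the classes was not tested. The class II count after anti-DCIR2-BDC was 5 without the second anti-DCIR2-BDC array, and after anti-DEC205-BDC it was 2 with all probe sets.

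**Figure D3:**
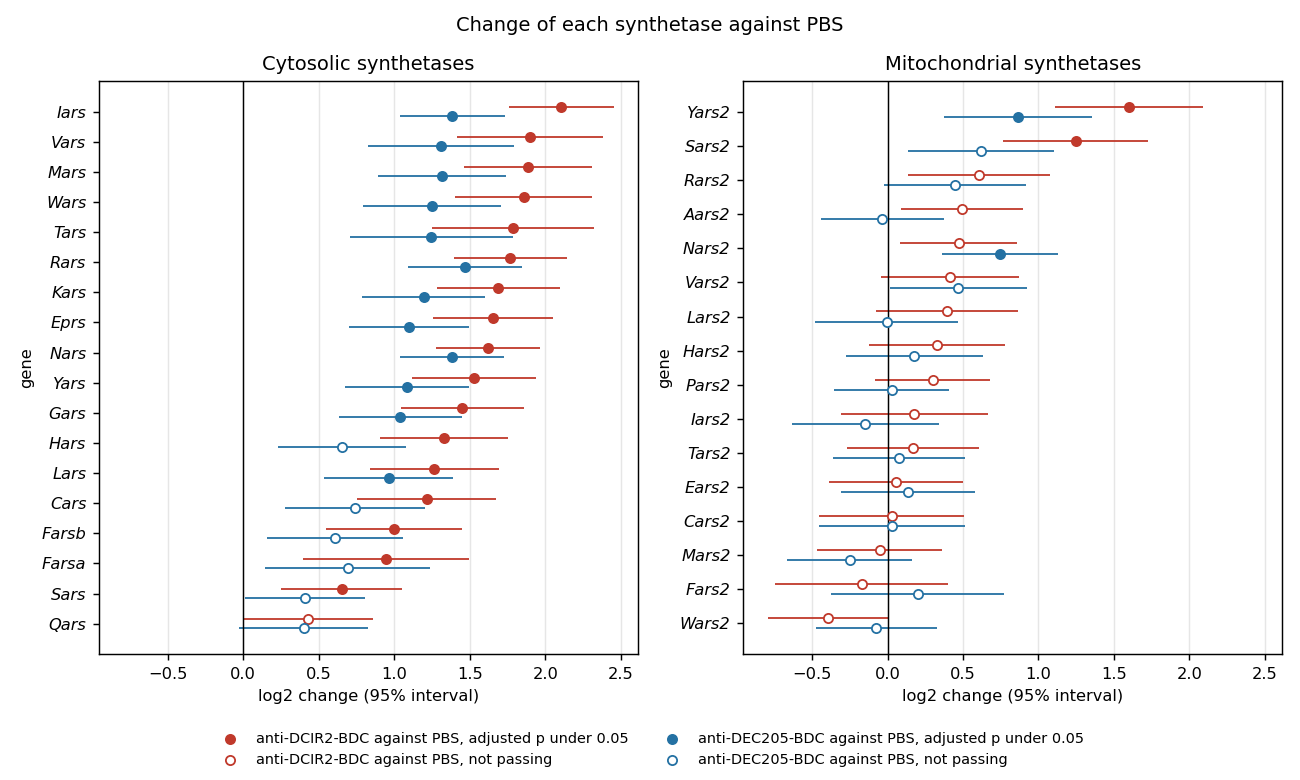
Log2 change against PBS of each of the 34 measured synthetases, with 95% confidence intervals from limma, after anti-DCIR2-BDC and after anti-DEC205-BDC. The cytosolic changes run from 0.43 to 2.11 after anti-DCIR2-BDC, and most mitochondrial intervals cross 0.

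Among the mitochondrial enzymes, Yars2, the tyrosine enzyme of mitochondria, had the largest change. It measured 8.12 and 8.65 on the anti-DCIR2-BDC arrays, 7.53 and 7.76 on the anti-DEC205-BDC arrays and 6.74 and 6.83 on the PBS arrays. The 3 groups were separate, and it rose after anti-DCIR2-BDC by 1.60 ± 0.22 (SE; adjusted p = 0.000645) and after anti-DEC205-BDC by 0.86 ± 0.22 (SE; adjusted p = 0.0365). Sars2, the serine enzyme, measured 7.40 and 7.83 on the anti-DCIR2-BDC arrays, 6.82 and 7.15 on the anti-DEC205-BDC arrays and 6.28 and 6.46 on the PBS arrays. It rose by 1.25 ± 0.22 (SE; adjusted p = 0.00253) after anti-DCIR2-BDC, and its value after anti-DEC205-BDC was 0.62 ± 0.22 (SE; adjusted p = 0.121), with the groups again separate. Yars2 and Sars2 were the only mitochondrial genes whose arrays all stood in the order anti-DCIR2-BDC, anti-DEC205-BDC, PBS. The share of all genes in this full order is not given here. By pairs, 23.4% of all genes lay above PBS after anti-DCIR2-BDC and 22.2% after anti-DEC205-BDC, and 19.3% lay above anti-DEC205-BDC after anti-DCIR2-BDC.

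Nars2, the asparagine enzyme, measured 6.76 and 6.75 on the anti-DCIR2-BDC arrays, 7.03 and 7.04 on the anti-DEC205-BDC arrays and 6.33 and 6.24 on the PBS arrays. Here the anti-DEC205-BDC arrays were the highest, with a rise of 0.75 ± 0.17 (SE; adjusted p = 0.0242), and the value after anti-DCIR2-BDC was 0.47 ± 0.17 (SE; adjusted p = 0.0961). Nars2 also passed after anti-DCIR2-BDC in the fit without a variance trend (adjusted p = 0.0425 in limma). The anti-DEC205-BDC calls of Nars2 and Yars2 were both lost without any 1 of the 4 arrays compared, which left 0 of 16 mitochondrial genes, and with all probe sets (adjusted p up to 0.105 and 0.177).

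The other 13 mitochondrial genes passed in neither comparison, with log2 changes from -0.39 (Wars2) to 0.60 (Rars2) after anti-DCIR2-BDC and from -0.25 (Mars2) to 0.47 (Vars2) after anti-DEC205-BDC. Rars2, the arginine enzyme, measured 7.21 and 7.40 on the anti-DCIR2-BDC arrays, 6.98 and 7.32 on the anti-DEC205-BDC arrays and 6.52 and 6.88 on the PBS arrays. All antibody arrays of Rars2 lay above PBS, with changes of 0.60 ± 0.21 (SE; adjusted p = 0.0795) and 0.45 ± 0.21 (SE; adjusted p = 0.264) for anti-DCIR2-BDC and anti-DEC205-BDC. The first passed without the dimmest 50% of genes (adjusted p = 0.0499). Vars2, the valine enzyme, measured 6.80 and 6.90 after anti-DCIR2-BDC, 6.83 and 6.98 after anti-DEC205-BDC and 6.20 and 6.67 after PBS, with changes of 0.41 (adjusted p = 0.224) and 0.47 (adjusted p = 0.226). In Vars2, too, no antibody array lay below a PBS array.

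Aars2, the alanine enzyme, had both arrays above PBS after anti-DCIR2-BDC but not after anti-DEC205-BDC. It measured 6.27 and 6.47 on the anti-DCIR2-BDC arrays, 5.67 and 6.01 on the anti-DEC205-BDC arrays and 5.81 and 5.94 on the PBS arrays, with changes of 0.49 (adjusted p = 0.0988) and -0.03 (adjusted p = 0.952). Lars2, the leucine enzyme, measured 6.58 and 6.75 after anti-DCIR2-BDC, 5.996 and 6.54 after anti-DEC205-BDC and 6.19 and 6.36 after PBS, with changes of 0.39 (adjusted p = 0.268) and -0.01 (adjusted p = 0.991). Wars2, the tryptophan enzyme, was the 1 synthetase below PBS on both anti-DCIR2-BDC arrays, where 31.9% of all genes lay so. It measured 5.98 and 6.08 on the anti-DCIR2-BDC arrays, 6.31 and 6.39 on the anti-DEC205-BDC arrays and 6.27 and 6.58 on the PBS arrays, a change of -0.39 ± 0.18 (SE; adjusted p = 0.184) that did not pass. Mars2, the methionine enzyme, was the 1 synthetase below PBS on both anti-DEC205-BDC arrays (26.5% of all genes), at 7.22 and 7.12 after anti-DCIR2-BDC, 7.09 and 6.86 after anti-DEC205-BDC and 7.18 and 7.26 after PBS, a change of -0.25 ± 0.19 (SE; adjusted p = 0.526) for anti-DEC205-BDC.

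Fars2, the phenylalanine enzyme, ran from 6.43 to 7.33 over the 6 arrays, with its highest value on the second anti-DEC205-BDC array, and its changes were -0.17 (adjusted p = 0.745) and 0.20 (adjusted p = 0.748). Ears2, which attaches glutamate, also to the glutamine transfer RNA of mitochondria, had changes of 0.06 (adjusted p = 0.900) and 0.14 (adjusted p = 0.781). For the enzymes of cysteine (Cars2), isoleucine (Iars2), proline (Pars2) and threonine (Tars2), the changes were 0.03, 0.18, 0.30 and 0.17 after anti-DCIR2-BDC. After anti-DEC205-BDC they were 0.03, -0.15, 0.03 and 0.07. The 95% intervals of these 4 genes reached no further than 0.68 upwards and -0.63 downwards.

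**Figure D4:**
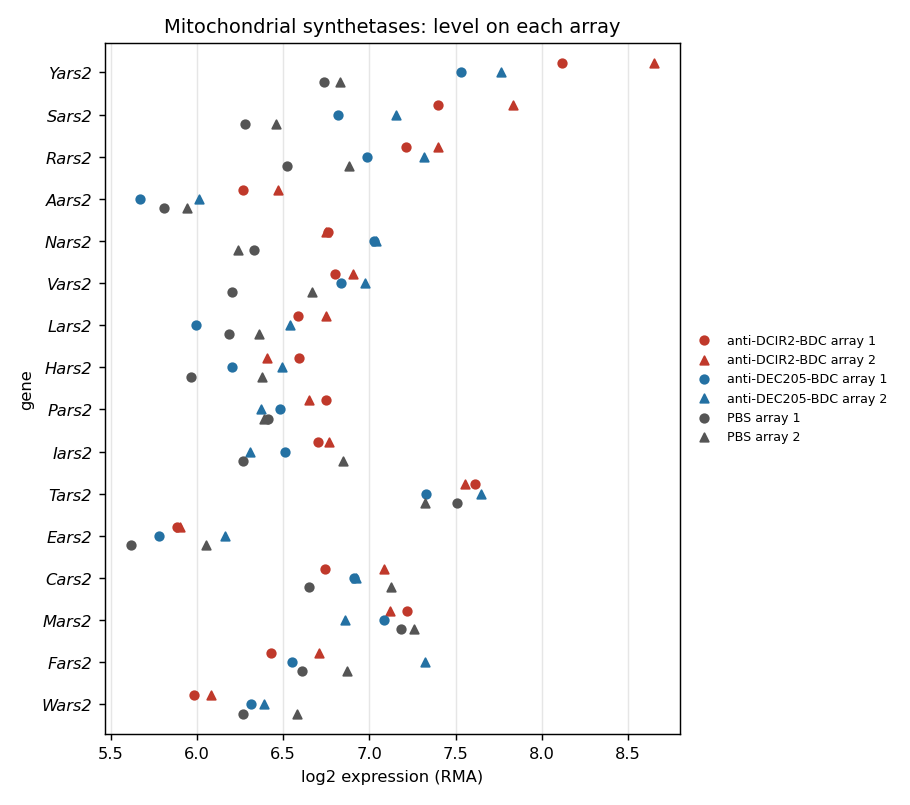
Log2 expression of the 16 mitochondrial synthetases on each of the 6 arrays, 1 row per gene and 1 point per array. In Yars2 and Sars2 the 3 groups are separate, and in Cars2, Iars2, Ears2 and Fars2 the antibody arrays lie among or around the PBS arrays.

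Anti-DCIR2-BDC was then set against anti-DEC205-BDC directly. Of the 34 members 0 passed in limma, where 4 of all genes (0.0201%) did. At an unadjusted p of 0.05, 11 cytosolic and 3 mitochondrial members differed. The share of all genes at this level is not given here, so these counts cannot be set against it. All 18 cytosolic genes had a positive difference, with a median of 0.46 beside -0.01 over all genes, from 0.03 for Qars to 0.72 for Iars. For Iars the adjusted p was 0.190 and the 95% interval 0.37 to 1.07. In 16 of the 18 both anti-DCIR2-BDC arrays lay above both anti-DEC205-BDC arrays, which held for 19.3% of all genes, the exceptions being Farsa and Qars. Over the cytosolic genes the 95% intervals of the difference ran from -0.40 to 1.10.

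For the mitochondrial genes the differences between the antibodies ran from -0.37 for Fars2 to 0.74 for Yars2, with 10 of 16 positive. Both anti-DCIR2-BDC arrays lay above both anti-DEC205-BDC arrays in 7 of 16 and below them in 2 of 16, Nars2 and Wars2, where 20.9% of all genes lay below. The Yars2 interval was 0.24 to 1.23 (adjusted p = 0.306 in limma), and that of Nars2, with a difference of -0.28, was -0.66 to 0.11 (adjusted p = 0.649). A count of 0 does not show that the antibodies acted alike on these genes.

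The synthetases were next read beside the other genes of transfer RNA supply. Over all genes 10.1% rose after anti-DCIR2-BDC and 5.32% after anti-DEC205-BDC, shares that stand beside the list counts from here on. Of the genes that transcribe, trim and export transfer RNAs, 13 of 19 rose after anti-DCIR2-BDC and 9 of 19 after anti-DEC205-BDC. The median changes were 0.999 and 0.67. Some of the 13 calls after anti-DCIR2-BDC were lost with all probe sets tested or when an array was left out. The call of an RNA polymerase III subunit was also lost with the mean of its probe sets. Xpot, the exporter of transfer RNA from the nucleus, measured 8.09 and 8.23 on the anti-DCIR2-BDC arrays, 7.63 and 7.86 on the anti-DEC205-BDC arrays and 6.06 and 6.70 on the PBS arrays. It rose by 1.78 (adjusted p = 0.000504) and 1.36 (adjusted p = 0.00625), and its groups did not overlap. Rpp40 and Pop1, subunits of the RNase P that trims the 5′ end, rose by 2.37 and 2.23 after anti-DCIR2-BDC and by 1.54 and 1.63 after anti-DEC205-BDC. With all probe sets the anti-DEC205-BDC calls of Xpot and Rpp40 were lost (adjusted p = 0.0613 and 0.0620 in limma), and 2 genes of the list passed. The count was 5 without either anti-DEC205-BDC array or the first PBS array. Polr3g, an RNA polymerase III subunit, rose by 1.61 (adjusted p = 0.000534) after anti-DCIR2-BDC. Maf1, the repressor of RNA polymerase III, fell after anti-DCIR2-BDC, with a change of -1.09 (adjusted p = 0.00187) and -0.65 after anti-DEC205-BDC (adjusted p = 0.0505).

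Of the enzymes that modify transfer RNA bases 13 of 20 rose after anti-DCIR2-BDC and 6 of 20 after anti-DEC205-BDC. Over all genes 10.1% and 5.32% rose. Here, too, some of the 13 calls were lost with all probe sets tested or when an array was left out. Mettl1, which methylates a guanosine of transfer RNAs, measured 8.49 and 8.88 on the anti-DCIR2-BDC arrays, 8.32 and 8.37 on the anti-DEC205-BDC arrays and 5.59 and 5.93 on the PBS arrays. Its rises were 2.93 (adjusted p = 3.93e-05) and 2.58 (adjusted p = 0.000306). Pus7, a pseudouridine synthase, rose by 2.47 and 1.90, and Nsun2, a cytosine methyltransferase, by 2.07 and 1.45, for anti-DCIR2-BDC and anti-DEC205-BDC. With all probe sets the count of 6 was 3. The list for mitochondrial transfer RNA modification also held Tfb1m, a methyltransferase of mitochondrial ribosomal RNA. It had 0 of 7 members passing in limma in either comparison. At an unadjusted p of 0.05 there were 0 and 1, with no share of all genes at this level given here. Under some alternatives 1 of the 7 passed.

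Of the mitochondrial translation factors 4 of 9 rose after anti-DCIR2-BDC and 3 of 9 after anti-DEC205-BDC, where 10.1% and 5.32% of all genes rose. Tufm, the elongation factor that takes charged transfer RNA to the mitochondrial ribosome, rose by 1.43 (adjusted p = 0.000514) and 0.85 (adjusted p = 0.0195). Mrrf, the ribosome recycling factor, rose by 1.89 (adjusted p = 0.000168) and 0.85 (adjusted p = 0.0271), and Gfm1, the translocation factor, by 1.48 (adjusted p = 0.000533) and 0.76 (adjusted p = 0.0389). The anti-DEC205-BDC count of 3 was 0 with all probe sets or without the second anti-DEC205-BDC array, and 1 without either PBS array or either anti-DCIR2-BDC array, which enter through the shared variance. Of the amidotransferase and formyltransferase genes, which finish charged mitochondrial transfer RNAs, 1 of 4 rose after anti-DCIR2-BDC, Gatc by 1.06 (adjusted p = 0.00511), a call lost without the second anti-DCIR2-BDC array. After anti-DEC205-BDC 0 of 4 passed in limma, and 1 at an unadjusted p of 0.05, a level without a share of all genes here.

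Aarsd1, which clears mischarged alanine transfer RNA, was the 1 editing gene of 4 that rose, by 1.16 (adjusted p = 0.00149) after anti-DCIR2-BDC and by 0.81 (adjusted p = 0.0222) after anti-DEC205-BDC. The second call was lost without any 1 of the 4 arrays compared and with all probe sets (adjusted p up to 0.124). Of the cytosolic elongation factors 1 of 4 rose after anti-DCIR2-BDC, Eef1d by 0.75 (adjusted p = 0.0131), where 10.1% of all genes rose. After anti-DEC205-BDC 0 of 4 passed in limma, where 5.32% of all genes rose, and 3 differed at an unadjusted p of 0.05. No share of all genes at the unadjusted level is given here, and with 4 genes these counts say little about the list. The Eef1d call was lost without either anti-DCIR2-BDC array or the first PBS array, and with each array centred on its median 3 of the 4 genes passed. Eef1a1, which carries charged transfer RNA to the cytosolic ribosome, had changes of -0.01 and -0.33 and did not pass.

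**Figure D5:**
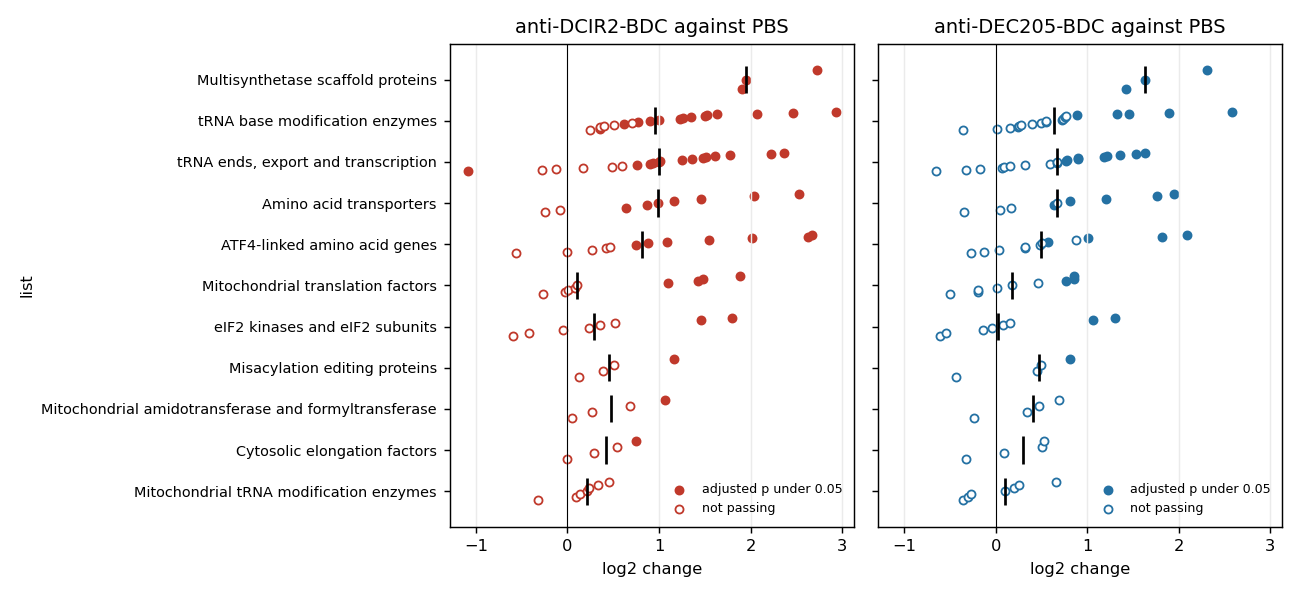
Log2 change against PBS of the genes of each list, after anti-DCIR2-BDC and after anti-DEC205-BDC, 1 point per gene, filled where it passed, with a bar at each list's median. The scaffold proteins lie at 1.91 or higher after anti-DCIR2-BDC, and the genes of the list for mitochondrial transfer RNA modification lie around 0.

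Transcripts of amino acid transporters and of genes of amino acid synthesis were set beside those of the synthetases. Of the transporters 7 of 9 rose after anti-DCIR2-BDC and 5 of 9 after anti-DEC205-BDC, where 10.1% and 5.32% of all genes rose. Slc7a5, the importer of large neutral amino acids such as leucine, isoleucine and tryptophan, measured 10.34 and 10.85 on the anti-DCIR2-BDC arrays, 9.80 and 10.24 on the anti-DEC205-BDC arrays and 8.16 and 7.98 on the PBS arrays. It rose by 2.52 (adjusted p = 5.95e-05) and 1.95 (adjusted p = 0.000781), and the glutamine importer Slc1a5 by 2.04 (adjusted p = 8.25e-05) and 1.76 (adjusted p = 0.000772). Slc7a1, an importer of arginine and lysine, rose by 1.46 and 1.20. The anti-DEC205-BDC count of 5 was 3 with a second quantile normalization, 3 with only the 4 arrays compared, and 2 with all probe sets. It was also lower when any 1 array was left out. Slc7a11, which exchanges cystine for glutamate, and Slc38a2, a carrier of small neutral amino acids, did not pass, with changes of -0.08 and -0.25 after anti-DCIR2-BDC and of 0.04 and -0.34 after anti-DEC205-BDC. The Slc7a1 call after anti-DEC205-BDC was among those lost without the second anti-DEC205-BDC array and without the first PBS array.

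Of the amino acid genes linked to ATF4, a transcription factor raised when charged transfer RNA runs short, 7 of 12 rose after anti-DCIR2-BDC and 4 of 12 after anti-DEC205-BDC. The shares of all genes that rose were 10.1% and 5.32%. Asns, the asparagine synthetase that makes the free amino acid, measured 7.18 and 6.84 on the anti-DCIR2-BDC arrays, 5.84 and 6.17 on the anti-DEC205-BDC arrays and 4.88 and 5.11 on the PBS arrays. It rose by 2.01 (adjusted p = 0.000108) and 1.01 (adjusted p = 0.0107), with the groups apart. Psat1 and Shmt2, of serine and glycine synthesis, rose by 2.63 and 2.67 after anti-DCIR2-BDC and by 1.81 and 2.09 after anti-DEC205-BDC. Phgdh, Aldh18a1, Mthfd2 and Eif4ebp1 also passed after anti-DCIR2-BDC, with rises of 1.54, 1.09, 0.88 and 0.75. The count after anti-DCIR2-BDC was 4 without the second anti-DCIR2-BDC array. After anti-DEC205-BDC it was 2 without the second anti-DEC205-BDC array, without the first PBS array or with all probe sets, and the Asns call was lost under each of these (adjusted p up to 0.0776). Psph, Sesn2 and Chac1 did not pass after anti-DCIR2-BDC, with changes of 0.47, 0.42 and 0.27, and Sesn2 passed under 3 of 16 alternatives. Members of the list with no rise included Trib3, a pseudokinase gene induced in this response, with changes of -0.56 ± 0.17 (SE; adjusted p = 0.05004) after anti-DCIR2-BDC and -0.27 ± 0.17 (SE; adjusted p = 0.449) after anti-DEC205-BDC. Trib3 passed as lower after anti-DCIR2-BDC under 6 of 17 alternatives. Ddit3, which encodes the stress factor CHOP, had changes of -0.0059 and 0.04, with its groups overlapping. Atf4 itself measured 7.84 and 8.18 on the anti-DCIR2-BDC arrays, 7.91 and 7.51 on the anti-DEC205-BDC arrays and 7.45 and 7.72 on the PBS arrays, with changes of 0.43 (adjusted p = 0.248) and 0.13 (adjusted p = 0.824). Its transcript did not pass, and Atf4 protein, which is controlled largely in translation, was not measured.

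The list of eIF2 kinases and eIF2 subunits also held regulators of the eIF2 phosphatase. Of its 8 measured genes 2 rose after each antibody, where 10.1% and 5.32% of all genes rose. The count after anti-DCIR2-BDC changed without the second PBS array. The genes that rose were the subunits Eif2s2, by 1.80 (adjusted p = 0.000112) and 1.30 (adjusted p = 0.00207), and Eif2s3x, by 1.46 (adjusted p = 0.000133) and 1.06 (adjusted p = 0.00235). Eif2ak4, the kinase that senses uncharged transfer RNA, had changes of 0.51 (adjusted p = 0.168) and 0.15 (adjusted p = 0.793). Myc, whose protein binds the E-box, measured 12.14 and 12.19 on the anti-DCIR2-BDC arrays, 11.18 and 11.79 on the anti-DEC205-BDC arrays and 8.86 and 9.99 on the PBS arrays. It rose by 2.74 (adjusted p = 0.000189) after anti-DCIR2-BDC and by 2.06 (adjusted p = 0.00280) after anti-DEC205-BDC, the second lost with all probe sets (adjusted p = 0.0613). Zbtb32, a transcriptional repressor of lymphocytes, measured 8.16 and 8.65 on the anti-DCIR2-BDC arrays, 6.40 and 6.68 on the anti-DEC205-BDC arrays and 6.21 and 6.02 on the PBS arrays. Its log2 difference between anti-DCIR2-BDC and anti-DEC205-BDC was 1.87 ± 0.22 (SE; adjusted p = 0.0289), a call lost under 6 of 17 alternatives, 3 of which each leave out 1 antibody array: either anti-DCIR2-BDC array or the first anti-DEC205-BDC array. The synthetases, with their smaller differences, held no such call.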

How the data were processed

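Expression was measured on Affymetrix arrays in 3 groups of 2. RNA came from a PicoPure kit, and 5 ng of it was amplified with a NuGen Ovation pico kit, per the labels' protocols. Per the submitters' processing notes and the design text, the authors deposited log2 values made with RMA in Partek, with versions not given in the sources used here. Because RMA makes the arrays alike in distribution, it hides shifts common to all genes. The 35556 probe sets held values from 2.15 to 13.9, and array medians ran from 5.43 to 5.56. Of the probe sets 21789 named 1 symbol, 1621 several and 12146 none, and 21698 matched RefSeq by Entrez number. A limma model (version 3.58.1, R 4.3.3) of group means over all 6 arrays was fitted to the 19938 genes, with variances moderated along a trend. Tests were two-sided, with p-values adjusted after Benjamini and Hochberg across the 19938 genes and a threshold of 0.05. Counts at an unadjusted p of 0.05 are given without a share of all genes beside them.

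The members and lists were chosen with earlier results of these data known, and Mars was matched through its RefSeq synonym. All members were named, of each other list up to 4 genes with the largest change, passing genes first, and Atf4, Myc and Zbtb32. Maf1, Eif2ak4, Eef1a1 and Cd4, Cd3e and Cd8a were singled out beside the rule or after their values were seen, as were T cell genes named for having passed. Slc7a11, Slc38a2, Trib3 and Ddit3 were also named beside the rule, for not passing. The remaining measured genes linked to ATF4 were named with them. Alternatives changed the normalization, the probe sets, the filter on dim genes, the variance model and the arrays used. Alternatives for the lists were added after seeing the data. Precision is limited by the few arrays. The fit was tested on simulated data with moderated and with raw spreads between arrays. It recovered fewer changes with raw spreads, missed the mark first set for this test, and passed only a mark lowered afterwards.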

Additional observations from a re-analysis of the deposited data

How the results depend on the processing

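Leaving out each array in turn, with the lone array of its group assumed to vary like the others, gave 16 to 19 passing synthetases for anti-DCIR2-BDC against PBS, 10 to 14 for anti-DEC205-BDC against PBS and 0 for anti-DCIR2-BDC against anti-DEC205-BDC. The mitochondrial count for anti-DEC205-BDC ran from 0 to 2. Over all genes the ranges were 2090 to 3637, 997 to 1367 and 0 to 27. With every probe set tested, 8 synthetases passed for anti-DEC205-BDC, 0 of them mitochondrial, and 694 of all probe sets. For anti-DCIR2-BDC against anti-DEC205-BDC, the count over all genes was 0 with every probe set, 7 after the 30% of genes with the lowest levels were left out, 9 with 50% left out, 0 without a variance trend and 2 with the replicate block. The cause of these changes was not tested. The labels do not say that equal replicate numbers share an animal, and same-numbered arrays deviated from their group means with correlations of 0.0714 (anti-DCIR2-BDC and anti-DEC205-BDC), 0.131 (anti-DCIR2-BDC and PBS) and 0.145 (anti-DEC205-BDC and PBS). With the replicate number as a block, 20, 15 and 0 synthetases passed in the comparisons in the order above, and Rars2 passed for anti-DCIR2-BDC against PBS (adjusted p = 0.0374), as did 1 dendritic cell marker. No called change reversed. Of the changes of single synthetases, 10 lost and 3 gained a call for anti-DCIR2-BDC against PBS, and 17 lost and 12 gained one for anti-DEC205-BDC against PBS, counting each gene under each alternative. The precision is set by 2 arrays a group, with a median half-width of the 95% interval of 0.388 on the log2 scale.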
